A study of Mus musculus with 4 samples.

Results

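The Mir17hg cluster of miR-17 to miR-92a on chromosome 14 and the miR-106a-363 cluster on chromosome X are paralogous runs of microRNA hairpins. In this NanoString nCounter table they were read by every probe whose name, or any part of a combined name, was mmu-miR-17, mmu-miR-18a, mmu-miR-18b, mmu-miR-19a, mmu-miR-19b, mmu-miR-20a, mmu-miR-20b, mmu-miR-92a, mmu-miR-106a or mmu-miR-363. The prefix for mouse (mmu) is left out below. This rule found 8 probes among 599 in the table, of which 566 target mouse miRNAs and 33 target viral miRNAs. The assay counts molecules of each mature miRNA in total RNA through a barcoded probe. The samples were mouse embryonic stem cells (ESCs) of the R1 line, 2 of them wild type (WT) and 2 without Dnmt1, Dnmt3a and Dnmt3b (TKO), the enzymes that write DNA methylation. All 4 samples shared serum medium with 1000 U/ml leukemia inhibitory factor on gelatin. The labels also state that all cells were differentiated for 4 days before RNA was taken. Each genotype is a single line, so genotype and line cannot be told apart. The limma p-values reflect only the spread between samples within a genotype, estimated for each probe partly from all probes in the fit. The panel holds no mRNA, so the loss of the DNMT transcripts could not be checked in these data.

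Both clusters are processed from a single primary transcript each, from which Drosha cuts the hairpins one by one. The chromosome 14 cluster, also called oncomiR-1, is known for promoting proliferation and survival, is activated by Myc and is abundant in ESCs and in many tumours. Its X-linked paralog and a further paralog in an intron of Mcm7, miR-106b-93-25, carry many of the same seeds. The seed, bases 2 to 8 of the mature miRNA, is the stretch that pairs with target mRNAs.

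In the GRCm38.p6 build the 6 hairpins of the Mir17hg cluster lie on the plus strand of chromosome 14 between 115043671 and 115044506, a span of 836 bases. Those of miR-106a-363 lie on the minus strand of chromosome X between 52741693 and 52742567, a span of 875 bases. Of the chromosome 14 hairpins, Mir92-1 lies within the annotated span of the noncoding host gene Mir17hg (115044390 to 115046728) and the others begin before it. None of the X-linked hairpins lies wholly inside the annotated span of the neighbouring noncoding gene Kis2 (52742563 to 52744593). These are gene spans, and the exon structure was not used here. A CpG dinucleotide, the site that DNMTs methylate, was present in 3 of 6 chromosome 14 hairpins and in 4 of 6 X-linked ones, against 66.5% of the 1005 mouse hairpins in RefSeq.

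The mature sequences below, from RefSeq, show which probes can tell the clusters apart. Capitals mark the seed, and names without an arm were taken as the dominant arm, as in the older naming. Probe sequences were not used here.
miR-17-5p (chromosome 14): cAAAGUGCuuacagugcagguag
miR-106a-5p (chromosome X): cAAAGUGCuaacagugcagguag
miR-20a-5p (chromosome 14): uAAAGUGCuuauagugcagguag
miR-20b-5p (chromosome X): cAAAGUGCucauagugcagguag
miR-18a-5p (chromosome 14): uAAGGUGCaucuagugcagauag
miR-18b-5p (chromosome X): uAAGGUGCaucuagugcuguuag
miR-19a-3p (chromosome 14): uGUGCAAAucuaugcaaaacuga
miR-19b-3p (both): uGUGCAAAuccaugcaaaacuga
miR-92a-3p (both): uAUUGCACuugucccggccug
miR-363-3p (chromosome X): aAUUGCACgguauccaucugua

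Counted from the 5′ end, miR-106a differs from miR-17 by U10A alone, and the table reads both with 1 probe. The miR-20 pair differs by U1C and U10C and also shares a probe. miR-19b and miR-92a have the same mature sequence from both clusters. The miR-18 pair differs by A18U and A20U outside the seed and has a probe for each. miR-19a and miR-19b differ by U11C, while miR-363 matches miR-92a at 10 of 21 aligned bases, the seed included. Thus 2 probes belong to chromosome 14 (miR-18a and miR-19a), 2 to chromosome X (miR-18b and miR-363), and 4 read both. How far near-identical miRNAs share a probe's signal was not tested.

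The deposited log2 values, which the authors scaled with nSolver, are given here as normalized counts. Recovered counts per sample summed to between 511661 and 613666. Probes for viral miRNAs had a mean of 31.5 normalized counts, and their mean plus 2 SD, 69.2, is called background. The mouse probes with a mean above it numbered 238. Of the ESC markers, the 11 probes of the miR-290 to miR-295 group summed to 338120 and 332117 normalized counts in WT and to 271498 and 295039 in TKO samples, more than any other list. None of them was called, and the part of this lower sum in the results was not tested. The summed neural markers were 733 and 641 in WT and 317 and 321 in TKO samples, mostly miR-124, which was called lower, and their part in the results was not tested. Muscle and liver markers (6 probes) were not above background, while 2 of 5 neural, 3 of 6 fibroblast, 3 of 6 blood and 7 of 8 let-7 probes were. Among the blood markers miR-150 was called lower. Their sum was 1397 and 1294 in WT and 1462 and 1639 in TKO samples, and their part in the results was not tested.

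All 8 probes had lower levels in TKO than in WT cells, with both TKO values below both WT values. A gap of this kind in this direction was found for 36.0% of all mouse probes. After adjustment over the 566 mouse probes, limma called 5 of the 8 lower and none higher, against 4.24% of all mouse probes called lower. Of the 238 mouse probes above background, 22 were called lower in this fit, and of the 6 members above background, 5. Those 5 were miR-363, miR-18b, miR-17 with miR-106a, miR-20a with miR-20b, and miR-19a. They made up 20.8% of the 24 probes called lower, while another 24 were called higher. Without WT replicate 1 or WT replicate 2 miR-363 alone of the members was called, and without TKO replicate 1 or TKO replicate 2 limma called 0 (6 of the 8 passed unadjusted), while all 8 stayed lower. The median log2 difference (TKO minus WT, of log2 of the normalized count plus 1) was -1.01 over the 8 probes and -0.12 over all mouse probes. With samples scaled to equal sums the calls were 17 lower and 27 higher, and the median of all probes moved to 0.0089. Fewer copies of a miRNA per cell and fewer cells holding it cannot be told apart in bulk RNA.

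**Figure D1:**
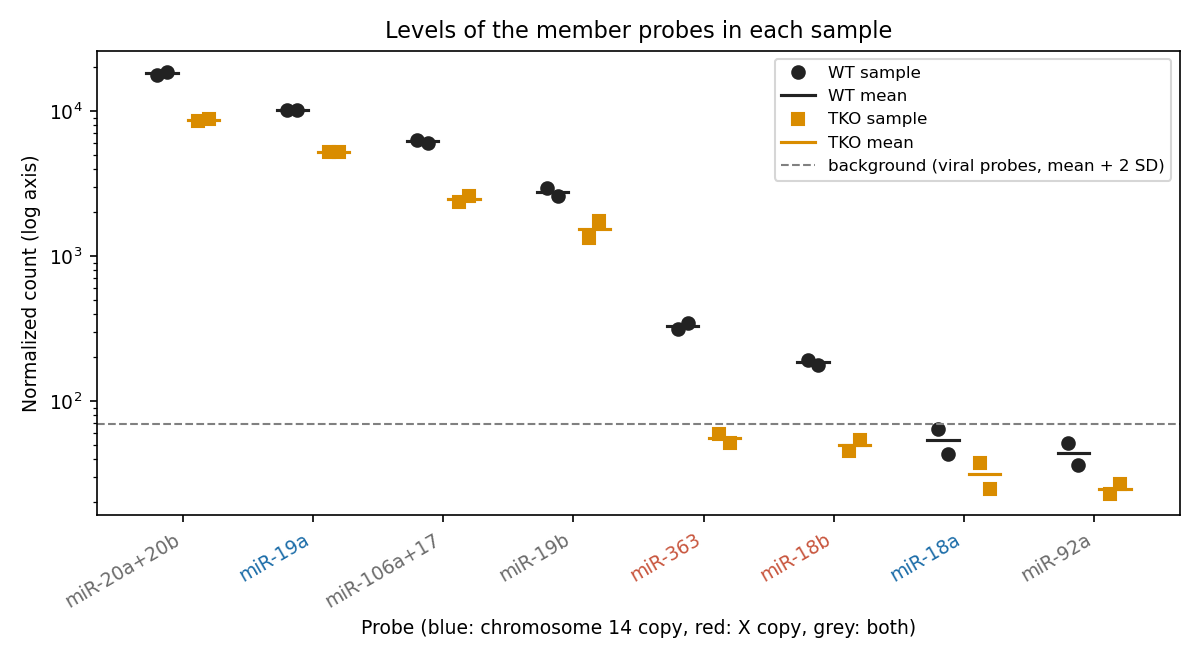
Normalized counts (log axis) of the 8 member probes in each WT sample (circles) and TKO sample (squares), with a short line at each mean of 2 samples. The dashed line is the background of 69.2 normalized counts, which miR-18a and miR-92a do not reach in any sample and which miR-363 and miR-18b pass in WT samples alone.

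The miR-17 seed family, known for restraining the cell cycle inhibitor Cdkn1a, has 2 probes among the members, and both fell. The probe for miR-20a and miR-20b gave the highest signal of the clusters, with 17647 and 18573 normalized counts in the WT samples and 8548 and 8814 in the TKO samples. It ranked 7 among all mouse probes in both WT samples and 8 in both TKO samples. Its TKO mean was 47.9% of the WT mean (log2 difference -1.06, SE 0.15, adjusted p = 0.0225 from limma). The probe for miR-17 and miR-106a read 6281 and 6050 in WT and 2371 and 2591 in TKO samples. Its difference was -1.31 (SE 0.15, adjusted p = 0.0155 from limma), so that 40.2% of the WT level was left. For both probes, the spread within a genotype was small beside the step between genotypes.

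The miR-19 family had both probes lower, of which miR-19a passed the test. miR-19a, which chromosome 14 alone encodes, was at 10112 and 10068.5 normalized counts in WT and 5173 and 5166 in TKO samples. Replicates of miR-19a were almost equal, and the difference was -0.96 (SE 0.14, adjusted p = 0.0263 from limma), leaving 51.2% of the WT level. This call was lost with samples scaled to equal sums (-0.83, adjusted p = 0.0651 from limma). miR-19b, which both clusters encode, was at 2950 and 2599 in WT and 1331 and 1743 in TKO samples. Its 2 TKO values lay farther apart, and its difference of -0.86 (SE 0.20, 95% interval -1.40 to -0.32) did not pass the threshold after adjustment (adjusted p = 0.0881 from limma). It passed among probes above background alone, with a trended prior and with voom (adjusted p = 0.0216, adjusted p = 0.00641 and adjusted p = 0.00787 from limma).

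The miR-18 family, known for acting on components of TGF-beta signaling, was read by a probe for each cluster. miR-18b of the X chromosome was at 192 and 177 normalized counts in WT samples and at 45.5 and 53.6 in TKO samples. It fell by 1.88 on the log2 scale (SE 0.17, adjusted p = 0.00841 from limma) to 26.9% of the WT level. Its TKO values lie below background. With the background of 69.2 in place of the TKO mean, the WT mean was at least 2.66-fold higher. miR-18a of chromosome 14 was at 64.2 and 42.7 in WT and 37.6 and 24.7 in TKO samples, below background throughout. These rest on 60 and 44 recovered counts in WT and 38 and 23 in TKO samples, for which exact 95% Poisson intervals run from 45.8 to 77.2, from 32.0 to 59.1, from 26.9 to 52.2 and from 14.6 to 34.5 counts. The intervals cover counting error only, and the difference of miR-18a was -0.76 (SE 0.31, adjusted p = 0.232 from limma).

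The miR-92 family, whose members are known to act on the proapoptotic Bcl2l11, was read by the probes for miR-363 and miR-92a. miR-363, at the 3′ end of the X-linked cluster, was at 315 and 345 normalized counts in WT and at 59.3 and 51.5 in TKO samples. Its difference of -2.55 (SE 0.16, adjusted p = 0.00473 from limma) was the lowest of the 566 mouse probes in this fit. With the mean of the viral probes subtracted it was -3.55 and lost its call (adjusted p = 0.0640 from limma). The TKO mean was 16.8% of the WT mean and lies below background. With the background in place of the TKO mean, the WT mean was at least 4.76-fold higher. miR-92a, which both clusters encode, was at 51.4 and 35.9 in WT and at 22.7 and 26.8 in TKO samples. These values lie below background in every sample, and the difference of -0.78 (SE 0.23, adjusted p = 0.146 from limma) was not called. With the viral mean subtracted, the difference was -2.504 for miR-92a (adjusted p = 0.141 from limma) and -2.18 for miR-18a (adjusted p = 0.516 from limma), so the size of the difference of these 2 probes is not settled.

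**Figure D2:**
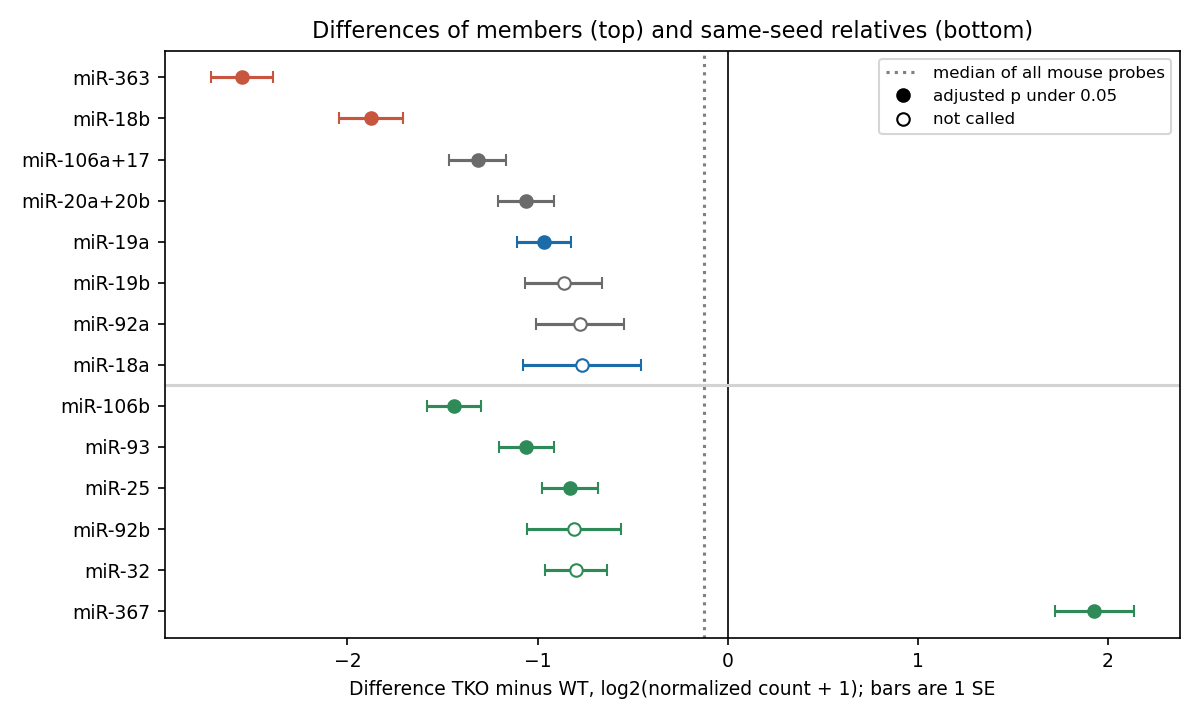
Log2 difference TKO minus WT with 1 SE for the 8 member probes (top; red, X-linked; blue, chromosome 14; grey, both) and the 6 probes of other miRNAs with a member's seed (bottom, green). Filled points passed the limma threshold after adjustment over all mouse probes; members lie between -2.55 and -0.76, and miR-367 alone lies to the right of 0, at 1.93.

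Among the probes above background, the order of signals in both genotypes was miR-20a with miR-20b, miR-19a, miR-17 with miR-106a and miR-19b, and neighbours in it did not overlap. miR-363 and then miR-18b followed in WT cells, again without overlap. The remaining values lie below background and were not ordered. Probes can differ in efficiency, so this order is one of signals and not of molecules. The 4 probes with means above 1000 normalized counts held between 98.3% and 99.2% of the clusters' summed signal in each sample.

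The 8 probes together held 6.39% and 6.37% of the signal of all mouse probes in WT samples and 3.48% and 3.21% in TKO samples. The 95% Wilson intervals ran from 6.32% to 6.45% and from 6.31% to 6.43% in WT samples. In TKO samples they ran from 3.43% to 3.54% and from 3.16% to 3.25%. These intervals cover counting error only. Those of the 2 TKO samples do not overlap, so they miss the spread between samples. Mean shares were 6.38% ± 0.0151 in WT and 3.35% ± 0.197 in TKO (SD, n = 2), and an exact two-sided permutation test gave p = 0.333, the smallest that 2 against 2 samples allow. miR-20a with miR-20b held 46.9% and 49.0% of the clusters' signal in WT and 48.6% and 47.7% in TKO samples. The share of miR-17 with miR-106a was 16.7% and 15.97% in WT against 13.5% and 14.03% in TKO samples, and that of miR-19a was 26.9% and 26.6% in WT against 29.4% and 28.0% in TKO samples, neither with overlap. Such shares sum to the whole of the clusters, so a lower share of 1 probe goes with a higher share of others. The 2 gaps are therefore not separate results. An exact permutation test of 2 against 2 samples cannot go below p = 0.333 for them.

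**Figure D3:**
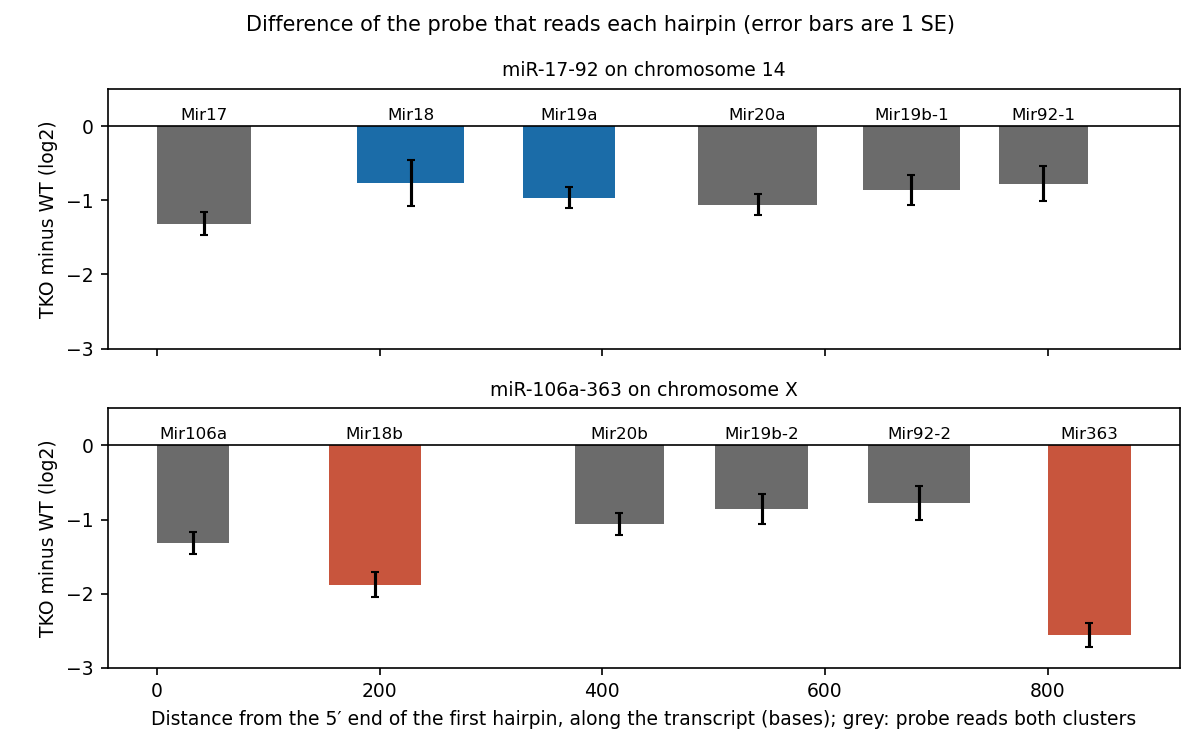
Log2 difference TKO minus WT (bars, with 1 SE) of the probe that reads each hairpin, placed by distance in bases from the 5′ end of the first hairpin of the Mir17hg cluster (top) and miR-106a-363 (bottom). Grey bars are probes that read both clusters and appear in both panels as the same measurement; the X-specific bars (red, -1.88 and -2.55) reach lower than the chromosome 14-specific ones (blue, -0.76 and -0.96), of which miR-18a lies below background in every sample.

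To ask whether the X-linked probes fell further than those of chromosome 14, the log2 ratio of a pair of probes was taken within each sample, which removes the scaling of the samples. In this order, the log2 ratio of miR-18b to miR-18a was 1.56 and 2.02 in WT and 0.27 and 1.09 in TKO samples. That of miR-363 to miR-92a, which share a seed, was 2.59 and 3.23 in WT and 1.35 and 0.92 in TKO samples. Both ratios were lower in both TKO samples, a gap that 36.0% of all mouse probes showed in their levels. The ratio of miR-19b to miR-19a was -1.78 and -1.95 in WT and -1.96 and -1.57 in TKO samples, and the genotypes overlapped. miR-92a and miR-19b read both clusters, so the pairs with them do not set chromosome X against chromosome 14.

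In the fit over all mouse probes after subtracting the partner, the log2 difference was -1.11 for miR-18b minus miR-18a (SE 0.48, adjusted p = 0.133 from limma, where 7.61% of probes were called). It was -1.78 for miR-363 minus miR-92a (SE 0.34, adjusted p = 3.19e-06 from limma, with 38.1% called) and 0.10 for miR-19b minus miR-19a (SE 0.20, adjusted p = 0.649 from limma, with 67.6% called). All rows of such a fit carry the error of the partner. With miR-18a or miR-92a as partner, limma counted this error as many measurements (1130 degrees of freedom), so its p is too small. With miR-19a as partner the degrees of freedom were 4.65. The moderated limma errors of the 2 probes were therefore also combined, which was chosen after seeing the data, over 5 pairs. This treats the errors of the 2 probes as independent. The combined SE was below that of the fit for miR-18b minus miR-18a (0.35) and miR-363 minus miR-92a (0.29). The intervals of these pairs may therefore be too narrow. For miR-19b minus miR-19a the combined SE was larger (0.25). The interval was -2.54 to -1.02 for miR-363 minus miR-92a (limma errors, adjusted p = 0.00591 over the pairs) and -2.06 to -0.17 for miR-18b minus miR-18a (limma errors, adjusted p = 0.0370). The partners miR-92a and miR-18a lie below background in every sample, so these values describe the signals, and it is not concluded from them that the X-linked miRNAs fell further. For miR-19b and miR-19a the interval ran from -0.56 to 0.76 (limma errors, adjusted p = 0.697).

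For this reason miR-19a, the best measured probe of chromosome 14, was taken as a partner too. The pairs of miR-363 and miR-18b with miR-19a were not planned. Their p-values are adjusted over 5 pairs and not over all probes. The log2 ratio of miR-363 to miR-19a was -5.002 and -4.86 in WT and -6.42 and -6.62 in TKO samples, a difference of -1.59 (SE 0.22, limma errors, adjusted p = 0.00591 over the 5 pairs). That of miR-18b to miR-19a was -5.71 and -5.82 in WT and -6.80 and -6.56 in TKO samples, a difference of -0.91 (SE 0.22, limma errors, adjusted p = 0.0189). The X-linked probes thus had lower ratios to miR-19a in both TKO samples, where their own values lie below background and the exact size of the fall is not measured. An exact permutation test cannot go below p = 0.333 for these ratios. A lower ratio to miR-19a was not particular to the X-linked probes. Counted from the lowest difference, miR-19a (-0.96) ranked 24 among all mouse probes, so most probes fell less or rose. Probes outside the X-linked cluster that fell further included miR-106b (-1.44) and miR-205 (-1.39). In the fit with miR-19a as partner, 67.6% of probes were called in either direction. Whether a fall below miR-19a follows the chromosome was not tested.

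**Figure D4:**
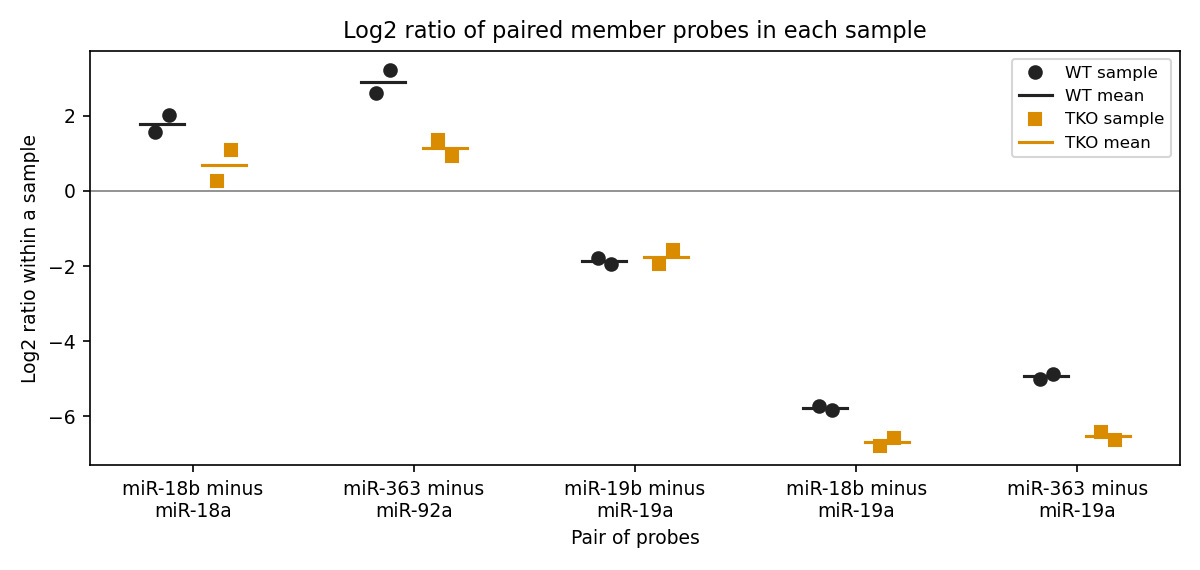
Log2 ratio of paired member probes within each WT sample (circles) and TKO sample (squares), with a line at each mean. The 4 ratios with an X-linked probe on top are lower in TKO samples without overlap, while that of miR-19b to miR-19a overlaps. These 4 ratios rest on 2 X-linked probes and are not separate results. A gap in this direction was found for the levels of 36.0% of all mouse probes, and its share among such ratios was not computed. miR-92a and miR-19b read both clusters, and miR-18a and miR-92a lie below background in every sample.

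Probes of other loci with the same seeds were compared with the members. Of the 6 such probes, limma called 3 lower and 1 higher. The miR-106b-93-25 cluster, the paralog in Mcm7, had all 3 probes called lower. miR-106b read 2576 and 2624 normalized counts in WT and 949 and 965 in TKO samples, a difference of -1.44 (SE 0.14, adjusted p = 0.0118 from limma). miR-93 and miR-25 differed by -1.06 and -0.83 (adjusted p = 0.0225 and adjusted p = 0.0454 from limma). With these, all 4 probes of the miR-17 seed family were called lower. These calls, and that of miR-25, were lost when any single sample was left out. The seed of miR-92a and miR-363 did not move as a family. miR-32 (-0.80, adjusted p = 0.0616 from limma) and miR-92b (-0.81, adjusted p = 0.150 from limma) were not called. The values of miR-92b lie below background in every sample. miR-367 of the miR-302 cluster carries the same seed and rose, with 153 and 123 in WT and 471 and 589 in TKO samples (1.93, SE 0.21, adjusted p = 0.0144 from limma). Its mature sequence beside that of miR-363 shows that they share the first 8 bases.
miR-363-3p: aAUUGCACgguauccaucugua
miR-367-3p: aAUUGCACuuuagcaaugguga

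Outside these families, the probes whose pattern over the 4 samples was most like the members' were miR-130b, miR-1983, miR-150, miR-205 and miR-1965. Likeness was the Euclidean distance of log2 values, each minus its own mean, from the mean of the members above background. The distances ran from 0.098 for miR-130b, with 1235 and 1213 normalized counts in WT and 473 and 480 in TKO samples, to 0.366 for miR-1965. The distances of the 8 members themselves ran from 0.128 for miR-17 with miR-106a to 1.14 for miR-363. All 5 probes were called lower by limma, which the choice by pattern makes likely, with differences between -1.39 and -1.18.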

How the data were processed

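NanoString nCounter probes read mature miRNAs in total RNA of 2 WT and 2 TKO samples. The authors normalized with nSolver (version, background handling and scaling probes are not given in the sources used here) and deposited log2 values. These were turned back to normalized counts, which in each sample were whole counts times 1 factor (between 0.971 and 1.07; whole within 0.05 for 100% of values), and this gave the recovered counts. Tests used log2 of the normalized count plus 1. limma 3.58.1 (lmFit, eBayes; R 4.3.3) was fitted over all 566 mouse probes with Benjamini-Hochberg adjustment at 0.05. The 33 viral probes set the background, at 2 SD above their mean. A name of 442 of the 566 probes matched a RefSeq mature miRNA (GRCm38.p6), from which seeds were read. Named are all members, probes sharing a member's seed, the miR-106b-93-25 cluster, the 5 probes nearest in pattern, and cell type markers. Members and lists were chosen with earlier results of these data known. The main fit and the fit with miR-19a as partner were also run on simulated counts, on which no result here rests. The partners miR-18a and miR-92a were not covered by that run. Python 3.11.15, pandas 2.3.3, scipy 1.17.1 and matplotlib 3.10.9 were used. Alternatives covered pseudocount, scaling, filters, the prior, voom, the replicate block and each sample left out.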

Additional observations from a re-analysis of the deposited data

How the results depend on the processing

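Each member probe in a fit was lower in TKO cells under each alternative run, where the filter on background left 6 of the 8. The number called lower by limma, 5, stayed between 4 and 6 under the other pseudocounts, scalings, filter, prior and voom, and was 4 with the viral mean subtracted. It was between 0 and 1 with single samples left out: miR-363 alone was called without WT replicate 1 and without WT replicate 2, and none without TKO replicate 1 or TKO replicate 2, where 6 of the 8 passed unadjusted. With the replicate block limma called 3 (miR-363, miR-18b and miR-17 with miR-106a). The labels say only that samples share a number, and the deviations of same-numbered samples correlated at r = -0.094 over all mouse probes and -0.243 above background; crossing the numbers gave 6 calls. miR-19a lost its call under sum and median scaling, with differences of -0.83 and -0.84, and miR-363 under viral subtraction, at -3.55. miR-19b gained a call above background, with the trended prior and with voom. Over all mouse probes, 24 lower and 24 higher became 57 and 32 with a trended prior, 55 and 30 with voom, 48 and 26 above background, 18 and 27 under median scaling, 14 and 18 after viral subtraction, 10 and 20 with the block, and between 0 and 1 lower and 0 and 13 higher with a sample left out. The difference of miR-18b minus miR-18a passed at -1.08 with a pseudocount of 10, at -1.11 by combined errors and at -1.52 without TKO replicate 2, and ran from -1.52 to -0.70 with samples left out. That of miR-363 minus miR-92a ran from -2.10 to -1.46, and that of miR-19b minus miR-19a from -0.092 (without TKO replicate 2) to 0.30. The cause of these changes was not tested. Low counts limit miR-18a and miR-92a most.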
